A study of Homo sapiens with 4 samples.

Results

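The genes described here encode the core of the Hippo kinase cascade and its scaffolds. They were chosen by name, as 10 symbols: the kinases STK3, STK4, LATS1 and TAOK1, the adaptors SAV1, MOB1A and MOB1B, and the scaffolds NF2, WWC1 and WWC2. All 10 were among the 19626 genes of the deposited tables, and all 10 passed the filter on low values that left 12157 genes to test. The rule that picked them used their names and no threshold on a measured value, though earlier results of these data were known when they were listed.

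In the Hippo pathway, TAO kinases activate the MST kinases (encoded by STK4 and STK3), which bind the scaffold SAV1 and phosphorylate the LATS kinases and their MOB1 co-activators. Active LATS phosphorylates YAP1, a co-activator of the TEAD transcription factors, and keeps it out of the nucleus. NF2 (Merlin) and WWC1 (KIBRA) bring the kinases together at the cell cortex. Several genes of this upstream machinery are themselves known targets of YAP1 and TEAD, an arrangement described as negative feedback, and in flies the counterparts of NF2 and WWC1 are targets of Yorkie, the YAP1 homolog.

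RNA-seq was carried out on ES-2 cells, an established human line labelled as ovarian clear cell carcinoma, which carries an endogenous YAP1-MAML2 (YM) fusion in every group. A nontargeting shRNA (shCtl, n = 2 biological replicates) or shM2-3, an shRNA against MAML2 that the labels call shMAML2 (n = 2), was delivered with pLKO.1 lentivirus. Per the labels, RNA was taken 96 h after the first infection, and the study's methods give a shorter time. The target of shM2-3 lies in the MAML2 part that the fusion shares, so loss of the fusion, loss of MAML2 and any other action of this single shRNA cannot be told apart. In bulk RNA, fewer cells expressing a gene and less of its RNA per cell cannot be told apart either.

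The libraries held between 20051083 and 23978660 estimated counts, with 390 or more on each of the 10 genes in each library. MAML2, the targeted gene, fell to 36.2% of its control RPKM, with 8.61 and 8.26 RPKM in shCtl and 3.11 and 2.998 in shM2-3, a log2 fold change of -1.40 (SE 0.0688, adjusted p = 5.18e-10 with edgeR). Per the study, the fusion transcript also carries MAML2 exons, so these values can hold reads of the fusion and of MAML2 together. RPKM is the read count scaled to transcript length and to library size. Of 5 epithelial markers, KRT8 and KRT18 were above an RPKM of 1, and their list summed to between 368 and 370 RPKM in shCtl and between 205 and 209 in shM2-3, while EPCAM, KRT19 and CDH1 did not exceed 0.361. The part of this fall in the Hippo values was not tested. PAX8 and NAPSA, markers of ovarian clear cell tumors, did not reach an RPKM of 1 in any library, so the labelled tumor type was not visible in these genes. The 5 fibroblast markers summed to 0.519 RPKM or less in each library, and the 4 leukocyte markers summed to between 0.524 and 1.04 in shCtl and between 1.005 and 3.27 in shM2-3, with PTPRC, which defines leukocytes, at 0.0173 or less.

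Among the Hippo core genes, WWC1 fell to 9.51% of its control RPKM in shM2-3 cells, from the highest RPKM of the 10 genes to the lowest. NF2 also fell, to 52.4% of its control RPKM, and MOB1A rose to 166%. STK3 fell by a smaller amount, TAOK1 and STK4 rose slightly, and LATS1, SAV1, MOB1B and WWC2 did not pass the test. In the edgeR quasi-likelihood test, with p-values adjusted over all genes tested and a threshold of 0.05, 3 of the 10 were lower and 3 higher. This test passed 72.7% of all genes, 36.4% as lower and 36.3% as higher. With a fold change of at least 2 required as well, 1 of the 10 was called (WWC1, lower), beside 18.2% of all genes, 8.93% lower and 9.24% higher. With a fold limit of 1.5, 2 were lower (WWC1 and NF2) and 1 higher (MOB1A), beside 18.9% of all genes lower and 18.9% higher. These shares do not set the 10 genes apart from the rest of the transcriptome as a group, and their median log2 fold change was 0.035, beside -0.0037 for all genes. In the depth-scaled counts (CPM) adjusted by edgeR's TMM factors, the groups did not overlap for 7 of the 10 genes, while 85.7% of all genes showed no overlap. In RPKM they did not overlap for NF2, WWC1, MOB1A, STK3, STK4, SAV1 and TAOK1, beside 86% of all genes.

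**Figure D1:**
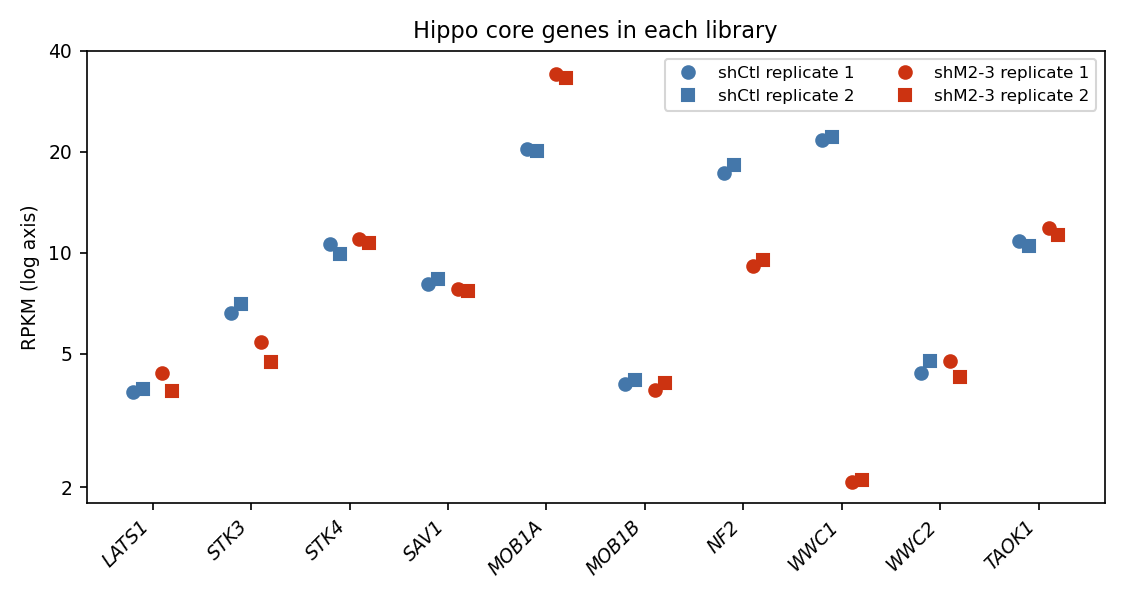
RPKM of the 10 Hippo core genes in each library, on a log axis, with shCtl in blue and shM2-3 in red, and with replicate 1 as circles and replicate 2 as squares. WWC1 dropped from 21.7 and 22.1 to 2.07 and 2.10, NF2 dropped by less, MOB1A lay higher in shM2-3, and the remaining genes shifted little.

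WWC1 encodes KIBRA, a WW and C2 domain scaffold that binds NF2 and the LATS kinases. The gene spans chr5:168291645-168472303 of hg38 on the plus strand, with 23 exons in its canonical GENCODE release 44 transcript. Its RPKM was 21.7 and 22.1 in the shCtl libraries and 2.07 and 2.10 in the shM2-3 libraries. Counts went from 3632 and 3774 to 423 and 390, so the shM2-3 values still rest on 390 or more counts. The groups were far apart in comparison with the replicates, whose SD was 0.333 RPKM in shCtl and 0.0255 in shM2-3. The log2 fold change was -3.33 (SE 0.0567, adjusted p = 1.37e-14), a 10.05-fold fall. WWC1 ranked 57th from the lowest of the 12157 log2 fold changes, and MAML2, whose values can include the fusion, ranked 570th.

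WWC2, the paralog of WWC1 with the same domains, lies at chr4:183099257-183320777 on the plus strand. It had RPKM values of 4.38 and 4.74 in shCtl and of 4.75 and 4.26 in shM2-3. The groups overlapped, and the log2 fold change was 0.051 (SE 0.0738, adjusted p = 0.55). Its interval of 2 SE on either side ran from -0.097 to 0.198, and the WWC1 value lies far outside it. Of the WWC2 canonical exons, 24.6% lie over exons of CLDN22 on the opposite strand, and since the libraries do not keep strand, reads of CLDN22 could be counted on WWC2. No such overlap was annotated for WWC1.

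The reference promoters of the pair were compared because the fusion is known to act through TEAD. TEAD proteins bind the core motif GGAATG, which was searched on both strands from 250 bases before to 50 after each annotated start (RefSeq windows, GRCh38.p14). In the stretches below, motif letters are in capitals. WWC2, whose level passed no test, had the motif at 2 places, starting 222 and 208 bases before the start (chr4:183099030-183099059, plus strand). WWC1, which fell, had none in its window, and the stretch at the same distance is given for comparison (chr5:168291418-168291447, plus strand). LATS2 and AMOTL2, Hippo genes from outside the 10 that were lower in shM2-3, are shown with their matches (chr13:21061560-21061589 and chr3:134374499-134374528, both minus strand). The AMOTL2 match, in 1 of its 2 windows, is on the other strand of its window and therefore reads CATTCC.
WWC2: gctcaGGAATGcggcgcgaGGAATGcgcat
WWC1: agacaggagcgttttaagtacaggcagagc
LATS2: cgtgacgcccgtGGAATGccaacaatgtag
AMOTL2: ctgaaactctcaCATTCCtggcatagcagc

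Windows were at hand for 9 of the 10 genes, 13 windows in all, and 1 of the 13 held the motif, beside 14.03% of the 35116 windows of the whole table. Of 70 windows for 45 other Hippo genes, 12 held it (17.1%), in 10 genes. Of these 10, 8 were tested for expression, with 6 lower and 2 higher, and of the 35 genes without a match 30 were tested, with 7 lower, 19 higher and 4 that did not pass. LATS2 and AMOTL2 are thus examples from the lower genes, while RASSF5 and SLMAP held the motif and were higher, and STRIP2 and RASSF3 held none and were lower. A gene counted as holding the motif if any of its windows did, so genes with more windows had more places for a match. Of all genes tested, 36.4% passed as lower and 36.3% as higher, and their split by the motif was not computed. These counts were made after the values were seen and are a description. NF2, MOB1A, MOB1B, LATS1, SAV1, STK4 and TAOK1 had no match. A match in these letters describes the sequence and does not show binding, and distant enhancers were not searched. For the 8 of 9 genes without a match, the letters are missing from these windows only.

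NF2 encodes Merlin, the cortical scaffold that recruits LATS to the membrane (chr22:29603556-29698598, plus strand, 16 exons). Its RPKM was 17.3 and 18.3 in shCtl and 9.14 and 9.52 in shM2-3. Both shM2-3 values lay below both shCtl values, far beyond the SD of 0.732 and 0.265 RPKM. The log2 fold change was -0.87 (SE 0.0496, adjusted p = 2.65e-09), a 1.82-fold fall that is short of the fold limit of 2. Of all genes tested, 11.6% had a lower log2 fold change than NF2.

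The MST kinases differed between the pair. STK3, which encodes MST2, lies at chr8:98371228-98942827 on the minus strand and had 6.59 and 7.01 RPKM in shCtl and 5.41 and 4.73 in shM2-3. It was lower in both shM2-3 libraries, with a log2 fold change of -0.36 (SE 0.0965, adjusted p = 0.00464). Without shM2-3 replicate 2 the value was -0.27, with an adjusted p of 0.0521 in the same test, just above the threshold. STK4, which encodes MST1 (chr20:44966494-45080021, plus strand), had 10.6 and 9.94 RPKM in shCtl and 10.97 and 10.7 in shM2-3. Its log2 fold change was 0.14 (SE 0.0498, adjusted p = 0.0212 from edgeR). STK4 missed the adjusted p threshold in 8 of 12 other settings, among them DESeq2 and total counts in place of TMM factors. In those 8, the adjusted p from DESeq2, edgeR or limma lay between 0.0702 and 0.306.

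TAOK1 encodes a TAO kinase that phosphorylates the MST kinases (chr17:29390363-29551903, plus strand). It had 10.8 and 10.5 RPKM in shCtl and 11.9 and 11.3 in shM2-3, without overlap. The log2 fold change was 0.185 (SE 0.0454, adjusted p = 0.00239), a ratio of 1.14. On the log2(RPKM + 0.1) scale it was 0.12, with an adjusted p of 0.116 from limma.

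LATS1, the kinase that phosphorylates YAP1 (chr6:149658153-149718105, minus strand), was the least abundant of the 10 genes in shCtl. It had 3.83 and 3.93 RPKM there and 4.39 and 3.87 in shM2-3. In RPKM the shM2-3 values lay on either side of shCtl replicate 2, whereas in TMM-scaled CPM the groups were apart. The log2 fold change of 0.15 (SE 0.0784) had an adjusted p of 0.0916 from edgeR. Without shM2-3 replicate 2 the value was 0.24, with an adjusted p of 0.0486. SAV1, the MST-binding adaptor (chr14:50632058-50668306, minus strand), had 8.04 and 8.32 RPKM in shCtl and 7.80 and 7.69 in shM2-3. On the RPKM scale the SAV1 groups were apart, whereas on the TMM-scaled CPM they overlapped, and the fitted log2 fold change was -0.013 (SE 0.081, adjusted p = 0.891). Exons of ATL1 on the opposite strand cover 14.2% of the SAV1 canonical exons. For LATS1 and SAV1 the intervals of 2 SE on either side ran from -0.0022 to 0.311 and from -0.175 to 0.149.

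MOB1A and MOB1B encode closely related co-activators that bind and activate LATS. MOB1A (chr2:74152528-74178898, minus strand) had 20.4 and 20.1 RPKM in shCtl and 34.0 and 33.2 in shM2-3. Both shM2-3 values lay far above the shCtl values, and counts went from 2439 and 2440 to 4967 and 4389. The log2 fold change was 0.80 (SE 0.0432, adjusted p = 1.51e-09), a ratio of 1.74, also short of the fold limit. Of all genes tested, 13.3% had a higher log2 fold change. MOB1B (chr4:70902326-71022449, plus strand) had 4.07 and 4.16 RPKM in shCtl and 3.89 and 4.08 in shM2-3. The MOB1B groups overlapped, with a log2 fold change of 0.020 (SE 0.0711, adjusted p = 0.81) and an interval of 2 SE on either side from -0.122 to 0.162.

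**Figure D2:**
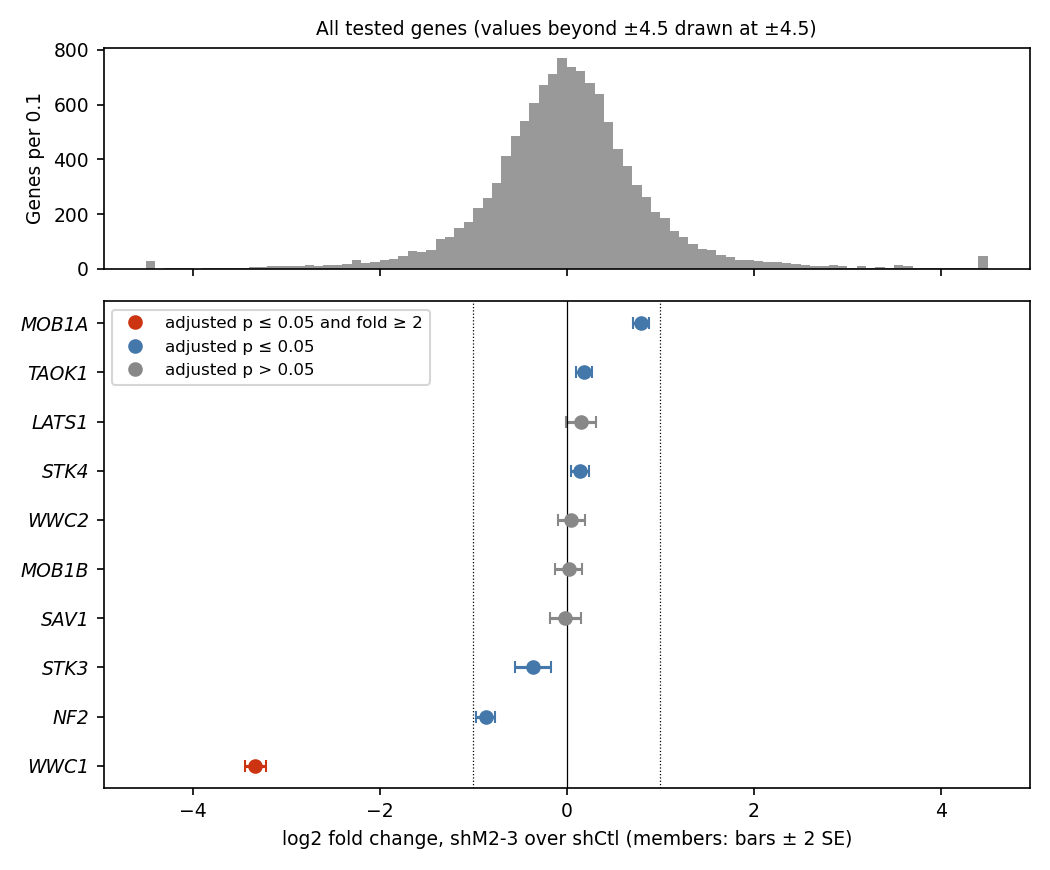
Log2 fold changes of shM2-3 over shCtl, with all 12157 tested genes as a histogram above (genes per bin of 0.1, with values beyond 4.5 in either direction drawn at the ends) and the 10 Hippo core genes below as points with bars of 2 SE on either side. Dotted lines mark a fold change of 2. WWC1 at -3.33 was the single gene of the 10 past them, with NF2 at -0.87 and MOB1A at 0.80 just inside.

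The order of the 10 genes by RPKM, a scale per transcript length, changed between the groups. In shCtl the order was WWC1 (21.9 ± 0.333, SD, n = 2), MOB1A (20.3 ± 0.235), NF2 (17.8 ± 0.732), TAOK1 (10.7 ± 0.26), STK4 (10.3 ± 0.485), SAV1 (8.18 ± 0.194), STK3 (6.80 ± 0.296), WWC2 (4.56 ± 0.26), MOB1B (4.11 ± 0.068) and LATS1 (3.88 ± 0.0716). TAOK1 and STK4 were the neighbors whose ranges overlapped there. In shM2-3, MOB1A led with 33.6 ± 0.577 (SD, n = 2), followed by TAOK1 at 11.6 ± 0.425, STK4 at 10.8 ± 0.202, NF2 at 9.33 ± 0.265 and SAV1 at 7.75 ± 0.0736, and WWC1 came last at 2.08 ± 0.0255. The ranges of neighbors overlapped for STK3 (5.07 ± 0.477), WWC2 (4.51 ± 0.344), LATS1 (4.125 ± 0.367) and MOB1B (3.99 ± 0.136). On log2(RPKM + 0.1), the median log2 fold change of all genes was -0.068, beside -0.0037 with TMM, so RPKM runs slightly lower in shM2-3. Summed over the 10 genes, RPKM went from 108 and 109 in shCtl to 94.3 and 91.4 in shM2-3. The part of the scale in this fall was not tested. WWC1 made up 20.1% and 20.3% of the summed RPKM in shCtl and 2.19% and 2.30% in shM2-3. MOB1A went from 19.0% and 18.4% to 36.1% and 36.3%.

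Within each pair of paralogs the balance shifted, as given by the log2 ratio of their RPKM in each library. The ratio of WWC1 to WWC2 was 2.31 and 2.22 in shCtl and -1.20 and -1.02 in shM2-3. By RPKM, WWC1 was thus the more abundant of the pair in control cells and WWC2 in depleted cells. Reads of CLDN22 could be counted on WWC2, and their part in this reversal was not tested. WWC3, the remaining gene of the family, was above WWC2 in every library, with 6.48 and 6.36 RPKM in shCtl and 8.61 and 8.97 in shM2-3, and rose by 0.52 (SE 0.0625, adjusted p = 5.11e-06 with edgeR) on the log2 scale. It was named after its values were seen. For MOB1A over MOB1B it was 2.33 and 2.27 against 3.13 and 3.02. For STK3 over STK4 it was -0.69 and -0.50 against -1.02 and -1.17, which left STK4 the more abundant MST gene in both groups. Groups did not overlap for any of these pairs, nor for LATS1 over LATS2, at -0.61 and -0.55 in shCtl against 0.28 and 0.099 in shM2-3. Among single genes, 86% also showed no overlap in RPKM, and the share over all pairs of genes was not computed. With 2 libraries against 2, an exact permutation test cannot give a p below 0.333. The log2 fold changes of the genes in a pair differed by -3.38 (SE 0.093) for WWC1 and WWC2, by 0.78 (SE 0.0832) for MOB1A and MOB1B, by -0.50 (SE 0.109) for STK3 and STK4 and by 0.77 (SE 0.112) for LATS1 and LATS2. These differences are given as descriptions and were not tested. No stretch of 50 bases was shared between the canonical transcripts of any of these pairs.

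**Figure D3:**
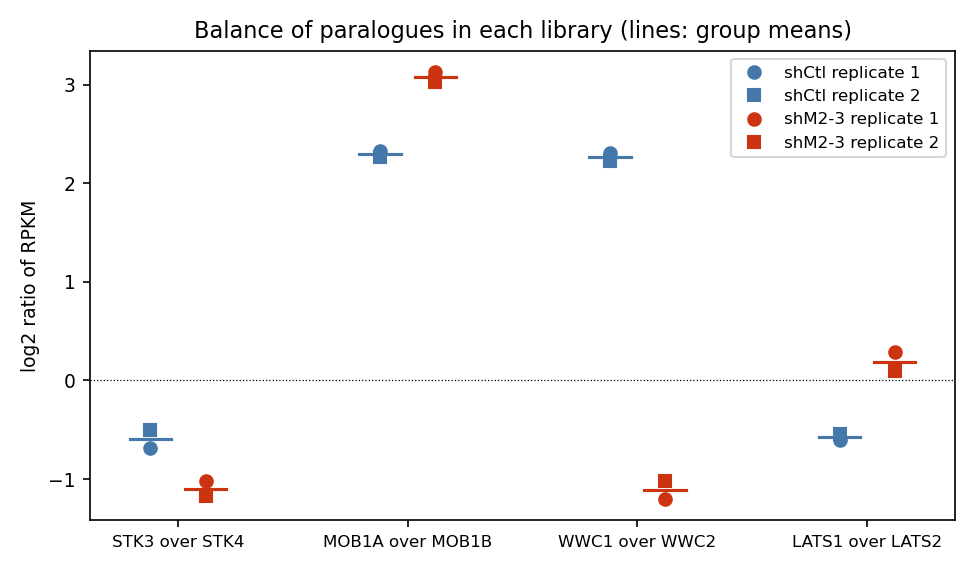
Log2 ratio of RPKM within 4 pairs of paralogs in each library, with shCtl in blue, shM2-3 in red, replicates as circles and squares and lines at group means. WWC1 over WWC2 crossed 0, from 2.31 and 2.22 to -1.20 and -1.02, and LATS1 over LATS2 crossed it in the other direction.

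LATS2, the second LATS kinase (chr13:20973036-21061586, minus strand), is outside the 10 genes but completes the cascade. It fell from 5.83 and 5.75 RPKM to 3.60 and 3.61, a log2 fold change of -0.62 (SE 0.0795, adjusted p = 1e-05 with edgeR).

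The other genes of the pathway were read from 4 lists, of which 48 genes were tested. Of these, 16 were lower and 27 higher at an adjusted p of 0.05 or less, and 4 were called lower and 5 higher with a fold change of 2. The share past the adjusted p was 89.6%, beside 72.7% of all genes, 36.4% as lower and 36.3% as higher. These shares of all genes stand beside the counts of each list below. The calls with a fold change of 2 stand beside 8.93% of all genes called lower and 9.24% called higher, a share close to that of the lists. Among 16 other kinases tested, 3 were lower and 11 higher, with a median log2 fold change of 0.25. MAP4K4, which can phosphorylate LATS in parallel to the MST kinases, rose from 25.4 and 25.2 RPKM to 63.0 and 63.7, a log2 fold change of 1.39 (SE 0.0395). TNIK, a kinase of the same family, rose from 3.58 and 3.49 to 9.08 and 8.68 RPKM, also by 1.39 (SE 0.0568). STK24 (MST3) rose by 1.09 (SE 0.0526), but 79.5% of its canonical exons lie over FARP1 exons on the opposite strand, and the reads cannot be told apart. STK38, an NDR kinase related to LATS, rose by 0.92 (SE 0.0705) and was just under the fold limit.

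Of 15 junction and membrane regulators tested, 6 were lower and 8 higher, with a median of 0.31. AMOTL2, an angiomotin that binds YAP1, fell from 85.0 RPKM in both shCtl libraries to 5.57 and 5.86, a log2 fold change of -3.83 (SE 0.0495). AJUBA, a LIM protein that inhibits LATS, fell from 41.5 and 43.7 RPKM to 4.67 and 4.66, a change of -3.13 (SE 0.0527). Together with WWC1 they were the Hippo genes here whose log2 fold change was below -3. The scaffolds DLG5 and DLG1 rose by 1.45 (SE 0.0572) and 1.04 (SE 0.0472). An annotated noncoding gene on the opposite strand covers 22.9% of the DLG5 canonical exons.

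In the STRIPAK complex, a phosphatase assembly that inactivates the MST kinases, 4 of 13 genes were lower and 7 higher, with a median of 0.27. STRIP2 fell by 1.18 (SE 0.104) on the log2 scale, from 4.80 and 5.34 RPKM to 1.98 and 2.29. STRN4, a striatin scaffold, rose by 0.61 (SE 0.0529), and PPP2CB, a catalytic subunit, rose by 0.60 (SE 0.0737). PPP2CA, the other catalytic subunit of the list, was more abundant in shCtl and fell slightly. It went from 28.8 and 28.7 RPKM to 25.1 and 25.4, a log2 fold change of -0.12 (SE 0.043, adjusted p = 0.0241 with edgeR). PPP2CA was named after its values were seen. Of 4 RASSF adaptors tested, 3 were lower and 1 higher. RASSF3 was called lower at -1.29 (SE 0.0854), RASSF4 and RASSF1 fell by 0.48 (SE 0.0768) and 0.39 (SE 0.0717), and RASSF5 rose by 0.92 (SE 0.293). RASSF5 had few reads, 38 and 65 in the shCtl libraries and 101 and 113 after depletion. Without shCtl replicate 1 it was 0.60 with an adjusted p of 0.111 (edgeR), and without shM2-3 replicate 2 it was 0.76 with an adjusted p of 0.0952 (edgeR).

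**Figure D4:**
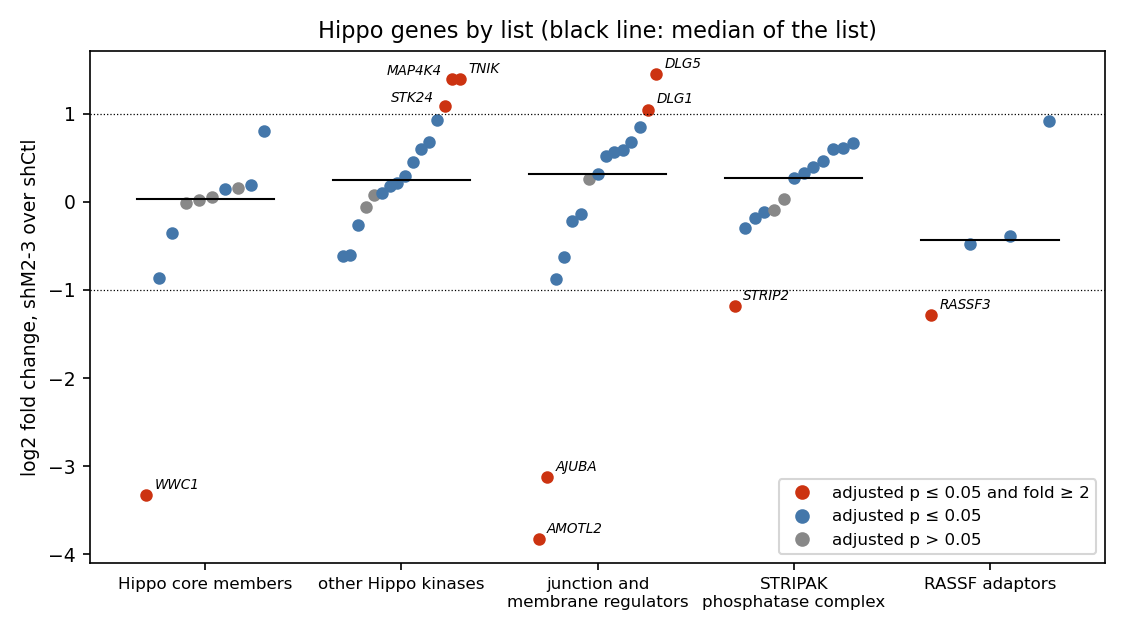
Log2 fold change of each tested gene in 5 lists of Hippo genes, with black lines at the list medians and dotted lines at a fold change of 2. WWC1, AJUBA and AMOTL2 stood below -3, and the median of the 10 core genes was 0.035.

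How far the values of the 10 genes moved was read under 12 other settings (other scalings, tests and filters, the replicate number as a block, and fits that each lacked 1 library). WWC1 stayed between -3.36 and -2.89, NF2 between -0.92 and -0.83, and MOB1A between 0.70 and 0.81, each past an adjusted p of 0.05 in all 12. STK3 kept its direction between -0.45 and -0.27. MOB1B, WWC2 and SAV1 took either sign, within -0.078 and 0.121.

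**Figure D5:**
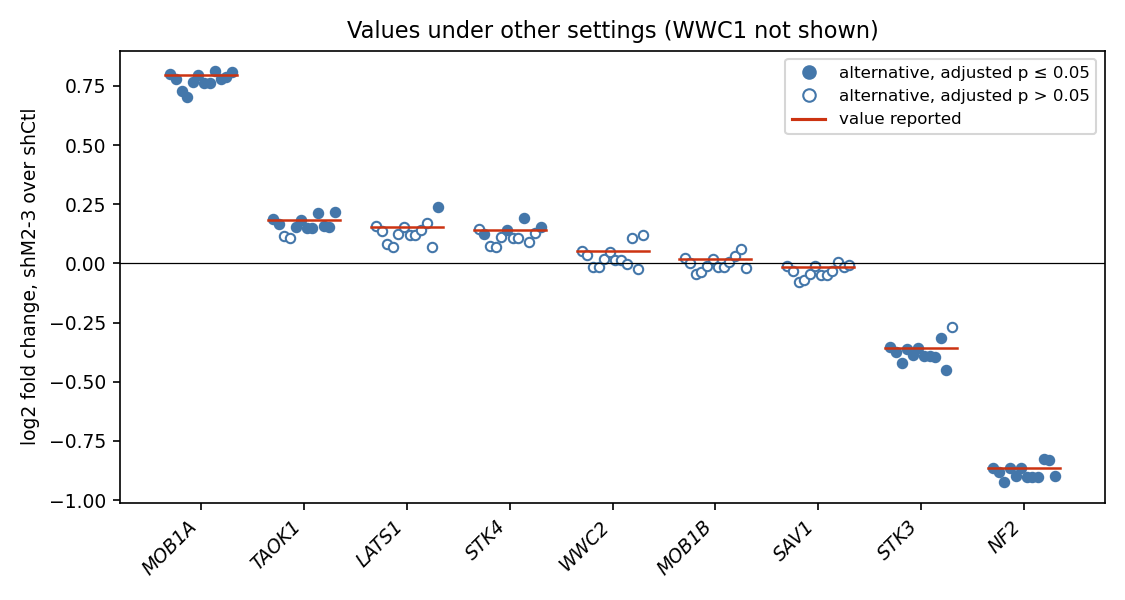
Log2 fold changes of 9 Hippo core genes under 12 other settings (points, filled where the adjusted p was 0.05 or less) with the reported value as a red line. MOB1A and NF2 were filled throughout, STK3 was open once, and MOB1B, WWC2 and SAV1 scattered about 0 and were open throughout.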

How the data were processed

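Per the labels and the study's methods, paired-end reads of 150 bases from non-strand-specific libraries were aligned to hg38 with HISAT2 2.0.4, ambiguous or poorly mapped reads were dropped, and RefSeq transcripts were quantified in Partek 7.18. The authors deposited estimated counts, which are not normalized and need not be whole, and RPKM values. Rounded estimated counts entered edgeR 4.0.16 under R 4.3.3 (TMM, glmQLFit, glmQLFTest). Genes were kept where any library exceeded 1 RPKM, and p-values were adjusted by Benjamini-Hochberg. SE is the log2 fold change divided by the square root of F. Calls needed an adjusted p not above 0.05 and at least a 2-fold change. The biological coefficient of variation was 0.0485, and with 2 libraries per group each SD rests on a pair of values. Replicates differed beyond counting noise (chi-square per degree of freedom 3.44 in shCtl and 3.98 in shM2-3). On simulated counts for the 12157 genes, edgeR recovered 98 of 100 genes changed 2-fold and 100 of 100 changed 4-fold, and passed 13 unchanged genes at an adjusted p of 0.05. The simulation changed only these genes, equally in each direction, with a single dispersion for all genes taken from these libraries. In the data 72.7% of genes passed, so the simulation does not measure errors under such broad change.

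Alternatives used DESeq2 1.42.0 and limma 3.58.1. Coordinates and exons come from GENCODE release 44 on hg38, the build of the files, and promoter windows from RefSeq on GRCh38.p14. The 10 genes, the other lists and the tests were chosen with earlier results of these data known. Named beside the 10 were MAML2, LATS2 and, in each other list, the genes called or, up to 4, the largest changes past the adjusted p. WWC3, SLMAP and PPP2CA were named outside this rule. Likeness of pattern was not computed over 4 libraries. The expression of CRB3 was not analysed here, and some genes of the lists are not reported here.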

Additional observations from a re-analysis of the deposited data

How the results depend on the processing

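With 2 libraries per group and estimated counts, small changes are the limit of these data. Other scalings moved the median of all genes by at most 0.066 (log2), which is enough to turn genes near 0. STK4 kept its direction but missed the adjusted p threshold in several settings (adjusted p in parentheses). It was at 0.14 with DESeq2 (0.0702), 0.11 without a filter on low values in edgeR (0.0731) and 0.105 with total counts (0.0734). It was at 0.105 with upper quartile factors (0.0718), 0.075 with limma on log2(RPKM + 0.1) and 0.069 on log2(RPKM + 1) (0.306 in each). TAOK1 missed the threshold at 0.117 and 0.108 on these limma scales (0.116 and 0.115). MOB1B turned negative at -0.045 and -0.037 on the limma scales, -0.011 without a filter, -0.0154 with total counts and -0.0154 with upper quartile factors. WWC2 was at -0.017 and -0.014 on the limma scales. The log2 fold changes of all genes shifted by a median of -0.066 and -0.063 on the limma scales. With total counts or upper quartile factors the median shift was -0.035. The part of these shifts in the moves of single genes was not tested.

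When each library was left out in turn, values ranged from 0.067 to 0.237 for LATS1, from -0.45 to -0.269 for STK3, from 0.0896 to 0.193 for STK4, from -0.034 to 0.0074 for SAV1, from -0.0188 to 0.0617 for MOB1B and from -0.0228 to 0.121 for WWC2. LATS1 passed the adjusted p without shM2-3 replicate 2, and STK4 failed it without shCtl replicate 2 or shM2-3 replicate 1. For the RASSF list, genes higher at the adjusted p ranged from 0 to 1 and genes called higher from 0 to 1.

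At a fold limit of 1.5, which 18.9% of all genes passed as lower and 18.9% as higher, the Hippo core counts were 2 lower and 1 higher. They were 2 and 6 for the other kinases, 4 and 5 for the junction regulators, 1 and 3 for STRIPAK and 1 and 1 for RASSF. On either limma scale, 1 core gene was higher at the adjusted p and 1 junction regulator was called higher. On log2(RPKM + 1), 0 STRIPAK genes were called lower. On log2(RPKM + 0.1), 0 RASSF genes were higher at the adjusted p. With filterByExpr or no filter, 2 RASSF genes were called lower, since more genes were tested. With the longer motif GGAATGT, 0 windows of the core genes matched. With the replicate number as a block, 3 core genes were lower and 3 higher and WWC1 was at -3.33, and no call of a named gene changed. Same-numbered libraries deviated together with a correlation of 0.0237 over 11051 genes, so the numbers do not show a pairing.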

Other observations

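The genes named here were chosen after their values were seen. Among the leukocyte markers, LYZ (lysozyme) differed between replicates of the same group, with 100 counts in shM2-3 replicate 1 and 5 in shM2-3 replicate 2, beside 33 and 15 in shCtl. CD14, a monocyte marker, was counted 3 and 4 times in the shCtl libraries and 42 and 37 times after depletion, at RPKM values under 1 in every library. PTPRC and CD3E, which define leukocytes and T cells, stayed at 3 counts or fewer in each library. The part of other cells in any Hippo value was not tested.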
